A study of Homo sapiens with 12 samples.

Results

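The 10 genes described here are a small set of the bone morphogenetic protein (BMP) and activin pathway together with the ID genes, chosen by their symbols from the 25702 genes of the deposited count table: the ligand genes BMP4 and INHBA, the receptor genes BMPR1A, BMPR2 and ACVR1, the antagonist genes GREM1 and FST, and the target genes ID1, ID2 and ID3. All 10 passed the filter on low values. RNA of WI-38 cells, an established line of normal human lung fibroblasts, was sequenced from flasks in 4 conditions, with 3 flasks and so 3 libraries in each. D1 flasks were left untreated and D1+TGF-β flasks received 2 ng/mL TGF-β, both being collected after 1 day at passage 2 to 3, and D20 and D20+TGF-β flasks were kept without or with the same dose for 20 days and collected at passage 5 to 6. For each treatment, 1 flask at day 1 seeded the fresh flasks of day 20, which then had new medium every 2 days. Differences between flasks of 1 line, and at day 20 between flasks grown from 1 parent flask, are therefore the spread that the p-values below measure, and days in culture and passage cannot be told apart.

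BMPs and activins are secreted dimers of the TGF-β family. They bind pairs of type I and type II serine/threonine kinase receptors. BMP receptors phosphorylate SMAD1, SMAD5 and SMAD9, and activin receptors phosphorylate SMAD2 and SMAD3, the same SMADs that TGF-β uses. Secreted antagonists such as gremlin and follistatin bind the ligands and keep them from the receptors. The ID genes are known as direct targets of BMP SMADs in many cell types. ID proteins have a helix-loop-helix domain but no basic region, so they pair with E proteins and keep them from DNA. In lung fibroblasts, TGF-β is known for driving the change to contractile myofibroblasts, and BMP signals are studied as a counterweight to it.

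Across the 12 libraries, ID1 and ID3 had the most similar pattern of log2 levels of any member pair (Pearson r = 0.955). Without D1 flask 2 and D20+TGF-β flask 3, which stood apart as described below, their r was 0.934. It was then lower than that of ID2 with ID3 (0.967) and of GREM1 with FST (0.953). The reference sequences just upstream of the ID1 and ID3 start sites, chosen by the r over all 12 libraries, are shown here. Both are the 250 bases before the RefSeq start on GRCh37, written 5′ to 3′ on the strand of the gene. The ID1 window is chr20:30192842-30193091 on the plus strand and the ID3 window is chr1:23885993-23886242 on the minus strand. Capitals mark matches, on either strand, to 4 short motifs: the GC-rich GGCGCC and the SMAD box CAGAC, both known from SMAD binding, and CCAAT and TATAA, which were added to the search after the sequences had been seen.
ID1: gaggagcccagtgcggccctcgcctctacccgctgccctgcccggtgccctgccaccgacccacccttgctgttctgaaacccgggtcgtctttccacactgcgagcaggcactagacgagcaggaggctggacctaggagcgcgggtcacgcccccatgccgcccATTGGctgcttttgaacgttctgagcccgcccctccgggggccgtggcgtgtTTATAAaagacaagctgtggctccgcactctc
ID3: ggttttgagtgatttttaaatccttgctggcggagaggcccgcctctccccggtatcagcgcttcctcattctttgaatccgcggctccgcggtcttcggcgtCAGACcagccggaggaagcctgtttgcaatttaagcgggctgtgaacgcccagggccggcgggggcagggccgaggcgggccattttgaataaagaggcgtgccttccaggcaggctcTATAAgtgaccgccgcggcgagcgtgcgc
In the ID1 window the capitals are a CCAAT on the opposite strand (bases -84 to -80, counted back from the start) and a pair of overlapping TATAA matches on opposite strands (bases -32 to -27). In the ID3 window they are 1 CAGAC (bases -147 to -143) and 1 TATAA (bases -29 to -25). GGCGCC was found in neither. Among all 35093 RefSeq promoter windows of the same length, 16.4% held GGCGCC, 38% held CAGAC, 32% held CCAAT and 18.9% held TATAA, so each motif is common. A match is only a match of letters, and sequence outside the windows was not searched.

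Levels are given as cpm, counts scaled to a common library total with TMM factors, in the order of flasks 1, 2 and 3. Library totals ran from 8674488 to 18286197 counts. Differences are log2 fold changes with their standard error (SE) and 95% interval from edgeR's quasi-likelihood test, and a gene is said to have risen or fallen where its p, adjusted over all 9490 genes tested, was under 0.01. As for the labelled cell type, all 10 fibroblast markers were expressed in every condition, with summed levels of 17230 to 29700 cpm, and 12 of 13 epithelial, endothelial and leukocyte markers stayed under 2 cpm in every library. The exception was CD68, a lysosomal membrane gene, at 37.5 to 61.5 cpm. ACTA2, the smooth muscle actin gene used as the marker of myofibroblasts, was at 123 to 225 cpm in D1, 680 to 836 cpm in D1+TGF-β, 272 to 292 cpm in D20 and 281 to 351 cpm in D20+TGF-β. TAGLN and CNN1, other contractile genes of the myofibroblast list, also rose with TGF-β at day 1 (0.87 and 1.21 on the log2 scale), while at day 20 the values were 0.13 for ACTA2 and 0.06 for TAGLN, not past the threshold, and CNN1 fell by 0.44 (adjusted p = 0.00509). The smooth muscle gene ACTG2 likewise rose by 0.82 at day 1 and fell by 0.47 at day 20 (adjusted p = 0.00715). For the protein, the paper reports a different course. It found no cells stained for α-smooth muscle actin after 1 day of TGF-β, and most treated cells stained at day 20. Its western blot also showed more of this protein at day 20 with TGF-β than without. The ACTA2 levels here are of RNA and do not give the share of myofibroblasts. RNA here is from whole cultures, so fewer cells of a kind and less RNA per cell cannot be told apart.

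A pair of libraries stood apart from the other flasks of their conditions, and both did so in these genes. In D1 flask 2, 110 of the tested genes (1.16%) lay more than 2-fold from the mean of the other 2 D1 flasks, and in D20+TGF-β flask 3 this held for 116 genes (1.22%), against 0 to 17 genes in the other 10 libraries. The median log2 distance over all tested genes set them less apart. It was 0.178 in D1 flask 2, against 0.166 and 0.138 in D1 flasks 1 and 3. In D20+TGF-β flask 3 it was 0.124, against 0.0879 and 0.0933 in flasks 1 and 2. D1 flask 2 was high in ID3 (by 2.82 on the log2 scale), ID1 (1.92), INHBA (1.15) and ID2 (1.11). D20+TGF-β flask 3 was low in ID1 (-1.43), ID3 (-1.37) and BMP4 (-1.03). The 4 lanes on which D1 flask 2 was read gave 86.4 to 93.2 cpm of ID3, without TMM scaling, so the excess was in all lanes of this library. Both libraries stay in the main results. Values without 1 or both are given beside the results that rest on them, and leaving out both together was an alternative chosen after the data had been seen. Without them more of all genes were called, 27.8% between D1+TGF-β and D1, 36.1% between D20+TGF-β and D20, 47.3% between the TGF-β conditions of the 2 times, 48.9% between D20 and D1, and 23.9% for the difference of responses to TGF-β. Since these libraries were chosen for their distance from the other flasks, adjusted p-values without them are no independent evidence. The fit also shares 1 estimate of the spread of each gene across the 4 conditions. Leaving out a library can thus move the p of a comparison that it is not part of, while the log2 value stays nearly the same.

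**Figure D1:**
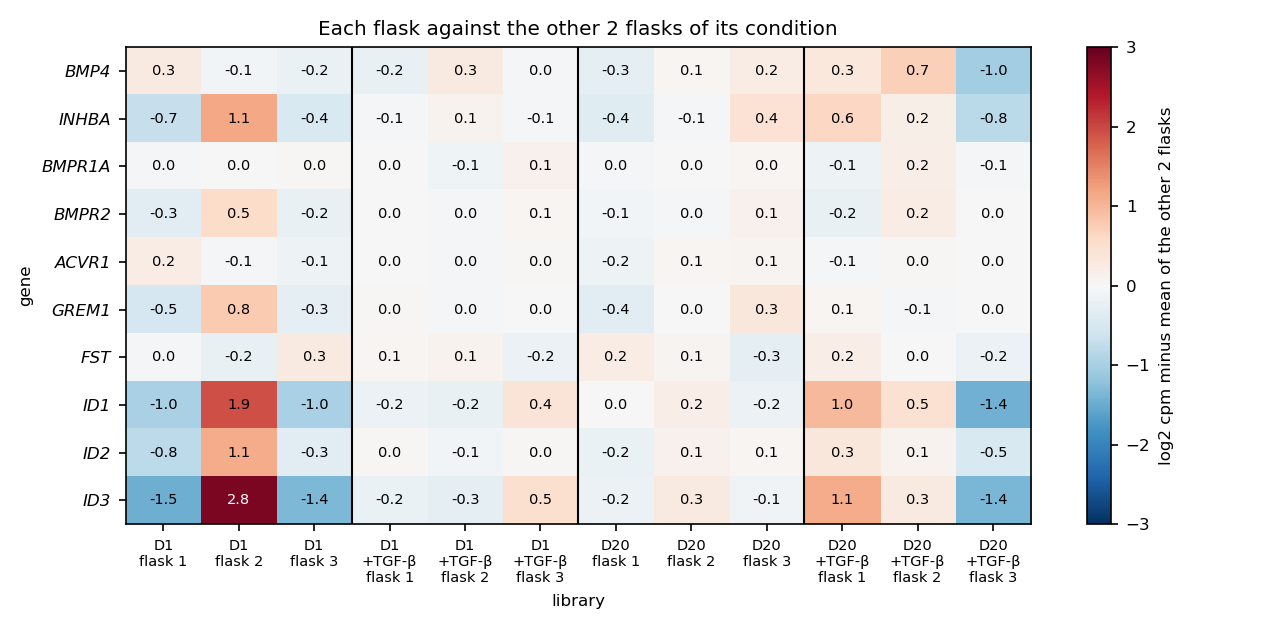
Log2 cpm of each of the 10 genes (rows) in each library (columns) minus the mean of the other 2 flasks of the same condition, with vertical lines between the 4 conditions. The red block in D1 flask 2 (up to 2.8 for ID3) and the blue cells in D20+TGF-β flask 3 (down to -1.4 for ID1 and ID3) are the values of the libraries that stood apart.

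Of the ligand genes, BMP4 changed most of the 10, rising with days in culture and lying lower where TGF-β was present, and INHBA lay higher with TGF-β at both times without passing the threshold. BMP4 (Entrez 652, chr14:54416454-54425479, minus strand, GRCh37) encodes a BMP that signals through BMPR1A and BMPR2. Its level was 14.4, 12.1 and 11.5 cpm at D1 and 6.39, 8.14 and 6.99 cpm at D1+TGF-β. At D20 it was 107, 125 and 134 cpm, and at D20+TGF-β it was 32.4, 38.6 and 17.2 cpm. The order of the conditions was D1+TGF-β, D1, D20+TGF-β and D20, and no neighbouring conditions in it overlapped.

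BMP4 was 9.66-fold higher at D20 than at D1 (log2 fold change 3.27, SE 0.22, 95% interval 2.81 to 3.74, adjusted p = 1.40e-07). With TGF-β it was 4.02-fold higher at day 20 than at day 1 (log2 fold change 2.01, SE 0.24, 95% interval 1.49 to 2.53, adjusted p = 2.69e-05). At day 20 it was 4.15-fold lower with TGF-β (log2 fold change -2.05, SE 0.20, 95% interval -2.48 to -1.62, adjusted p = 4.04e-06). These 3 calls held under every alternative run. The decrease with TGF-β at day 1 did not pass the threshold (log2 fold change -0.79, SE 0.26, 95% interval -1.34 to -0.23, adjusted p = 0.0400), nor did the difference of the responses at the 2 times (log2 fold change -1.27, SE 0.33, 95% interval -1.97 to -0.56, adjusted p = 0.0148). Both passed without D20+TGF-β flask 3, at adjusted p = 0.00131 and 0.00212 in edgeR, with log2 values of -0.78 and -1.01, and the second also without D20+TGF-β flask 2, at -1.49 (adjusted p = 0.00512). D20+TGF-β flask 3 is in neither condition of the day 1 comparison, where the p moved but the log2 value hardly did. Without both libraries that stood apart the 2 log2 values were -0.80 (0.000838) and -0.99 (0.000696). With all libraries kept, both also passed with DESeq2, at adjusted p = 0.00355 and 0.000629. Without the filter on low counts both passed in edgeR (0.00762 and 0.00166), and with only the libraries compared the day 1 decrease did (0.00482). The other 16 of 21 alternatives did not call the day 1 decrease, with edgeR adjusted p-values up to 0.135. The other 15 of 20 did not call the difference, up to 0.0703. At D1+TGF-β the level rested on few reads, 55, 146 and 60 counts. BMP4 shares its locus with a long noncoding RNA on the opposite strand, and how strand was used in counting is not given in the sources used here.

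INHBA (Entrez 3624, chr7:41706766-41745432, minus strand) encodes the βA subunit that forms activin A as a homodimer. INHBA stood at 18.0, 42.5 and 20.2 cpm at D1 and 53.2, 57.5 and 52.9 cpm at D1+TGF-β. The 20-day flasks had 16.5, 19.0 and 24.1 cpm without and 49.4, 40.2 and 25.6 cpm with TGF-β. At each time the flasks with TGF-β all lay above those without. The differences were 1.01 (SE 0.28, 95% interval 0.40 to 1.61, adjusted p = 0.0188) at day 1 and 0.95 (SE 0.29, 95% interval 0.33 to 1.57, adjusted p = 0.0174) at day 20, neither past the threshold. Without D1 flask 2 the values were 1.52 (adjusted p = 0.000211) and 0.96 (0.00102), and without D20+TGF-β flask 3 they were 1.00 (0.00712) and 1.17 (0.00382), all from edgeR and all past it. For the 0.96 and the 1.00 the flask left out is in neither condition compared, and the log2 value hardly moved. Without the filter on low counts both differences also passed in edgeR, at 0.99 (adjusted p = 0.00187) and 0.97 (0.00152). Without both libraries that stood apart they were 1.53 (2.19e-08) and 1.18 (1.34e-07). Under the other 17 of 21 alternatives neither difference passed, with edgeR adjusted p-values up to 0.0834 at day 1 and 0.0855 at day 20. The part of the libraries that stood apart in the result was not tested. Between D20 and D1 the flasks overlapped, and the log2 value of -0.44 (SE 0.29) became 0.08 without D1 flask 2. At D20+TGF-β relative to D1+TGF-β the flasks did not overlap, with -0.50 (SE 0.28, 95% interval -1.09 to 0.10, adjusted p = 0.151). INHBA also overlaps an antisense gene, INHBA-AS1.

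**Figure D2:**
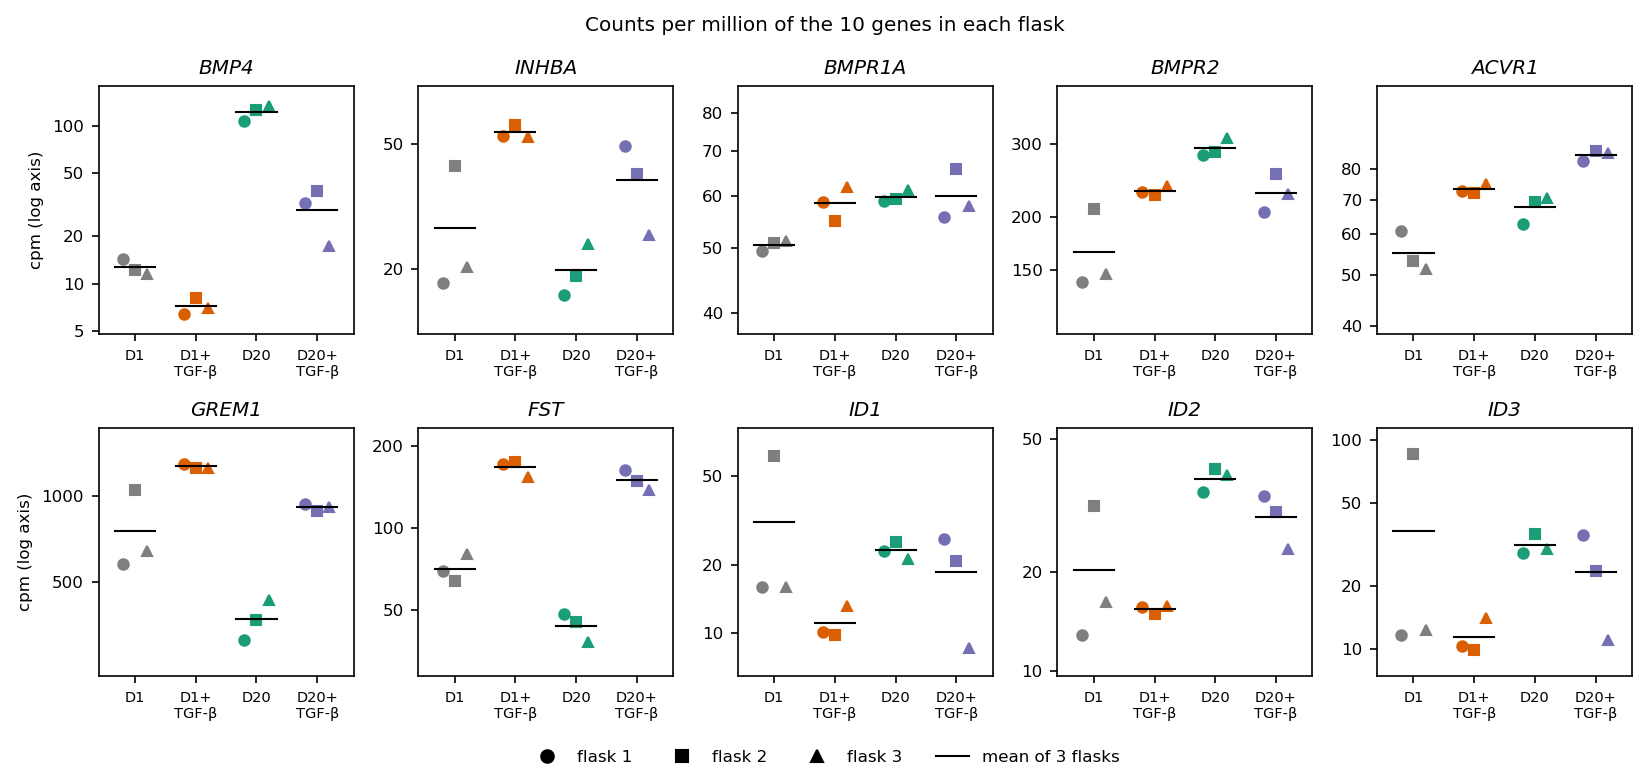
Levels of the 10 genes in cpm on log axes, each panel with its own range, for the 4 conditions; circles, squares and triangles are flasks 1, 2 and 3 and the bar is their mean. BMP4 runs from 6.39 to 134 cpm without overlap of neighbouring conditions, GREM1 and FST lie higher with TGF-β at both times, and single flasks lie far from the others in the panels of ID1, ID2 and ID3 at D1.

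The largest called change among the receptor genes was that of BMPR2, 1.77-fold higher at D20 than at D1. BMPR1A (Entrez 657, chr10:88516353-88692582, plus strand) encodes a type I receptor for BMP2 and BMP4. The D1 flasks had 49.6, 50.9 and 51.4 cpm and the D1+TGF-β flasks 58.7, 55.1 and 62.0 cpm. The day 20 flasks had 58.9, 59.4 and 61.2 cpm without TGF-β and 55.8, 65.8 and 58.0 cpm with it. The 3 D1 flasks were the lowest of the 12 and the other conditions overlapped. BMPR1A passed the threshold in none of the 5 comparisons of the edgeR test. Its p without adjustment was under 0.05 for D1+TGF-β vs D1 (0.0153) and for D20 vs D1 (0.00580), where the log2 values were 0.21 (SE 0.07) and 0.24 (SE 0.07), the latter passing without D20+TGF-β flask 2 (0.24, adjusted p = 0.00999). At day 20 the interval of the TGF-β difference ran from -0.16 to 0.16.

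BMPR2 (Entrez 659, chr2:203241050-203432474, plus strand) encodes the type II receptor of BMPs. It was at 140.4, 209.7 and 146 cpm at D1, with flask 2 the highest, and at 230.2, 227 and 238 cpm at D1+TGF-β. At day 20 the values were 283, 287 and 309 cpm without TGF-β and 206, 254 and 228 cpm with it. So the TGF-β flasks lay above the untreated ones at day 1 and below them at day 20, without overlap at either time. BMPR2 rose from D1 to D20 (log2 fold change 0.82, SE 0.13, 95% interval 0.55 to 1.10, adjusted p = 0.000134). Neither single TGF-β comparison passed the threshold, with 0.48 (SE 0.13, 95% interval 0.21 to 0.76, adjusted p = 0.0139) at day 1 and -0.35 (SE 0.13, 95% interval -0.63 to -0.08, adjusted p = 0.0383) at day 20. The difference between these responses did pass it (log2 fold change -0.84, SE 0.18, 95% interval -1.22 to -0.45, adjusted p = 0.00517), the only such call among the 10 genes. That call was lost when any 1 of 9 libraries was left out (D1 flasks 1 and 3, each flask of D1+TGF-β and D20, and D20+TGF-β flask 1), with log2 values of -0.86 to -0.73 and adjusted p-values of 0.0110 to 0.0182. Without D1 flask 2 the 2 responses were 0.70 (adjusted p = 4.71e-05) and -0.35 (0.00154), both past the threshold, and without both libraries that stood apart they were 0.70 and -0.34, with a difference of -1.04 (8.99e-07). The day 1 response passed under 6 of 21 alternatives, among them DESeq2 and no filter on low counts with all libraries kept. The day 20 response passed under 3 of 21. The call of the difference was also lost without a composition factor (-0.73, 0.0111). BMPR2 overlaps a gene model on its own strand, ENSG00000289490, whose reads may be shared.

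ACVR1 (Entrez 90, chr2:158592763-158732842, minus strand), also called ALK2, encodes a type I receptor that binds BMPs and can be occupied by activin. The D1 flasks had 60.8, 53.3 and 51.4 cpm and the D1+TGF-β flasks 72.8, 72.2 and 74.9 cpm. At D20 and D20+TGF-β the values were 62.9, 69.4 and 70.5 cpm and 83.0, 86.8 and 86.2 cpm, respectively. The 4 conditions did not overlap and lay in the order D1, D20, D1+TGF-β, D20+TGF-β. ACVR1 was 1.33-fold higher with TGF-β at day 1 (log2 fold change 0.41, SE 0.07, 95% interval 0.25 to 0.57, adjusted p = 0.00133) and 1.26-fold higher at day 20 (log2 fold change 0.33, SE 0.07, 95% interval 0.18 to 0.49, adjusted p = 0.00240). The difference between the 2 responses was -0.08 (SE 0.10, 95% interval -0.30 to 0.15, adjusted p = 0.645). ACVR1 also rose from D1 to D20 by 1.23-fold (log2 fold change 0.29, SE 0.07, 95% interval 0.14 to 0.45, adjusted p = 0.00450). The day 20 response was lost without D20 flask 1 (0.29, adjusted p = 0.0150) or D20+TGF-β flask 2 (0.32, 0.0104), and the rise from D1 to D20 without D1 flask 3 (0.25, 0.0188), D20 flask 2 (0.28, 0.0214) or D20 flask 3 (0.26, 0.0268). That rise was lost as well without a composition factor (0.22, 0.0182), without the filter on low counts (0.22, 0.0529) and with only the libraries compared (0.27, 0.0380). At D20+TGF-β relative to D1+TGF-β the value was 0.22 (SE 0.07, adjusted p = 0.0229), which passed without D1 flask 1 (0.22, adjusted p = 0.00741).

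The antagonist genes GREM1 and FST were both higher with TGF-β at both times and both lower at D20 than at D1. GREM1 (Entrez 26585, chr15:33010205-33037307, plus strand) encodes gremlin 1, which binds BMP2, BMP4 and BMP7. Its levels were 577, 1047 and 639 cpm at D1 and 1290, 1249 and 1250 cpm at D1+TGF-β. At D20 they were 313, 369 and 431 cpm and at D20+TGF-β 934, 883 and 914 cpm. D20 was the lowest condition and D1+TGF-β the highest, while the D20+TGF-β flasks fell inside the range of the D1 flasks, of which flask 2 was the highest. The rise with TGF-β was 1.67-fold at day 1 (log2 fold change 0.74, SE 0.18, 95% interval 0.37 to 1.12, adjusted p = 0.00753) and 2.45-fold at day 20 (log2 fold change 1.29, SE 0.18, 95% interval 0.91 to 1.68, adjusted p = 7.59e-05). The difference of the 2 responses was 0.55 (SE 0.25, 95% interval 0.02 to 1.08, adjusted p = 0.134). From D1 to D20, GREM1 fell by 1.02 on the log2 scale (SE 0.18, adjusted p = 0.000331), or by 0.71 (edgeR adjusted p = 7.16e-05) without D1 flask 2. The call at day 1 was lost when any 1 of 8 libraries was left out (D1 flasks 1 and 3, each D1+TGF-β flask, D20 flask 2, and D20+TGF-β flasks 1 and 2), with adjusted p-values of 0.0104 to 0.0355, and also without a composition factor (0.68, 0.0116) and with only the libraries compared (0.76, 0.0181). Its value was 1.06 without D1 flask 2 and also without both libraries that stood apart. In the presence of TGF-β, GREM1 was lower at day 20 than at day 1 in all flasks, by a log2 value that missed the threshold with all libraries (log2 fold change -0.47, SE 0.18, 95% interval -0.85 to -0.10, adjusted p = 0.0380) and passed it without D1 flask 2 (-0.47, adjusted p = 0.000815) or without both (-0.48, 0.000191). This value also passed in edgeR without the filter on low counts (-0.51, adjusted p = 0.00728) and with only the libraries compared (-0.47, 0.000270). It did not pass under the other 17 of 21 alternatives, with edgeR adjusted p-values up to 0.0955. D1 flask 2 is in neither condition of this comparison, and without it the log2 value hardly moved. GREM1-AS1 lies on the opposite strand.

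FST (Entrez 10468, chr5:52776456-52782964, plus strand) encodes follistatin, a secreted protein that binds activins tightly and some BMPs more loosely. No other annotated gene overlaps it. It measured 69.5, 63.8 and 80.1 cpm at D1 and 172, 174 and 155 cpm at D1+TGF-β. Without TGF-β at day 20 it was at 48.3, 45.3 and 38.4 cpm, and with TGF-β at 163, 148 and 138 cpm. The 6 flasks with TGF-β all lay above the 6 without. The 2 TGF-β conditions overlapped, and D20 lay below D1. FST was 2.35-fold higher with TGF-β at day 1 (log2 fold change 1.23, SE 0.10, 95% interval 1.01 to 1.46, adjusted p = 2.71e-06) and 3.42-fold higher at day 20 (log2 fold change 1.77, SE 0.11, 95% interval 1.55 to 2.00, adjusted p = 5.22e-08). It fell by 0.70 on the log2 scale from D1 to D20 (SE 0.11, adjusted p = 0.000117). These 3 calls held under every alternative run. The larger response at day 20 missed the threshold as a difference (log2 fold change 0.54, SE 0.15, 95% interval 0.23 to 0.86, adjusted p = 0.0186), and passed it without D1 flask 2 (0.62, adjusted p = 0.00480) or without both libraries that stood apart (0.68, 0.000418). With all libraries kept, this difference also passed with DESeq2 (0.55, adjusted p = 0.00482). In edgeR it passed without a composition factor (0.65, 0.00710) and without the filter on low counts (0.57, 0.00751). It did not pass under the other 15 of 20 alternatives, with edgeR adjusted p-values up to 0.058. At D20+TGF-β relative to D1+TGF-β the value was -0.16, with an interval from -0.37 to 0.06.

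Of the ID genes, ID2 alone passed the threshold in the main results, being higher at day 20 than at day 1 both without and with TGF-β. For ID1 and ID3, the range within the D1 flasks was wider than the range of the 4 condition means. ID1 (Entrez 3397, chr20:30193086-30194318, plus strand) was at 16.0, 61.0 and 16.0 cpm at D1 and 10.1, 9.81 and 13.2 cpm at D1+TGF-β. At D20 it was at 23.0, 25.4 and 21.4 cpm, and at D20+TGF-β at 26.2, 20.8 and 8.55 cpm. The D1+TGF-β flasks all lay below the D1 flasks, and D20+TGF-β ranged from below the lowest D1+TGF-β flask to above the highest D20 flask. With TGF-β at day 1 the log2 value was -1.53 (95% interval -2.58 to -0.48, adjusted p = 0.0350), and without D1 flask 2 it was -0.55. With all libraries kept, this decrease passed in edgeR without the filter on low counts (adjusted p = 0.00341). It also passed without both libraries that stood apart, and not under the other 19 of 21 alternatives. At day 20 the TGF-β difference was -0.30, with an interval from -1.29 to 0.69. From D1 to D20 the value was -0.44 (SE 0.44, adjusted p = 0.430), which turned to 0.54 without D1 flask 2. Without both libraries that stood apart, ID1 was at -0.55 for D1+TGF-β vs D1 (adjusted p = 0.00457), 0.52 for D20 vs D1 (0.00161) and 1.14 for D20+TGF-β relative to D1+TGF-β (6.28e-07) in the edgeR test.

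ID3 (Entrez 3399, chr1:23884417-23885992, minus strand) followed ID1 closely. It was at 11.7, 86.0 and 12.4 cpm at D1, so that D1 flask 2 had the highest level and D1 flasks 1 and 3 were near the lowest of all 12 libraries. D1+TGF-β flasks had 10.3, 9.92 and 14.1 cpm, overlapping those 2 flasks. At D20 ID3 was at 29.0, 35.7 and 30.1 cpm and at D20+TGF-β at 35.1, 23.7 and 11.1 cpm. With TGF-β at day 1 the log2 value was -1.73 (interval -3.13 to -0.33, adjusted p = 0.0685), and -0.09 without D1 flask 2. Without D1 flask 2 the value for D20 vs D1 moved from -0.24 to 1.40, and that for D20+TGF-β relative to D1+TGF-β was 1.10 (adjusted p = 0.00721). Without both libraries that stood apart these values were 1.38 and 1.42. No direction can thus be given for ID1 or ID3 between D20 and D1 that does not depend on 1 library.

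ID2 (Entrez 3398, chr2:8818975-8824591, plus strand) had the smallest spread of the 3. The D1 flasks had 12.9, 31.4 and 16.1 cpm and the D1+TGF-β flasks 15.7, 14.9 and 15.7 cpm. At day 20 the values were 34.6, 40.6 and 39.2 cpm without TGF-β and 33.8, 30.3 and 23.3 cpm with it. The D20 flasks were the highest, and all D20 flasks lay above all D1 flasks. ID2 was 1.87-fold higher at D20 than at D1 (log2 fold change 0.90, SE 0.24, 95% interval 0.39 to 1.41, adjusted p = 0.00618) and 1.90-fold higher at D20+TGF-β than at D1+TGF-β (log2 fold change 0.93, SE 0.25, 95% interval 0.39 to 1.47, adjusted p = 0.00766). The first call was lost when any 1 of 5 libraries was left out (D1 flasks 1 and 3 and each D20 flask; 0.67 to 0.96, adjusted p 0.0111 to 0.0326) and the second for any 1 of 8 (each D1+TGF-β and D20 flask and D20+TGF-β flasks 1 and 2; 0.79 to 0.94, adjusted p 0.0109 to 0.0385), although the direction was the same in each. The first was also lost without a composition factor (0.82, 0.0105) and with only the libraries compared (0.88, 0.0206). Without D1 flask 2 the first value was 1.40, and without both libraries that stood apart the values were 1.38 and 1.06. The TGF-β differences were -0.41 at day 1 (interval -0.96 to 0.14) and -0.38 at day 20 (interval -0.88 to 0.12). The flasks overlapped at day 1, and the value there was 0.09 without D1 flask 2. ID2-AS1 overlaps ID2 on the opposite strand, and the annotation holds a processed pseudogene of ID2 as well as 2 of BMPR1A, whose reads could be confused with theirs.

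Counted over the 10 genes, 3 rose and 0 fell with TGF-β at day 1, whereas of all 9490 genes tested 13.4% were called, 6.89% higher and 6.5% lower. With TGF-β at day 20, 3 rose and 1 fell, against 27.5% of all genes (12.8% higher, 14.7% lower). With TGF-β present, from day 1 to day 20, 2 rose and 0 fell, against 34.8% of all genes (17.2% higher, 17.7% lower). From D1 to D20, 4 rose and 2 fell, against 36.4% (18.9% higher, 17.6% lower). For the difference of responses to TGF-β 1 gene was called, lower at day 20, against 10.4% of all genes (4.51% higher, 5.87% lower). The genes were picked for their pathway with earlier results known, and with 10 genes these shares were not tested against the background. Without D1 flask 2 and D20+TGF-β flask 3 the counts were 7, 6, 5, 8 and 3 in the same order, beside the shares of all genes given above. The median size of the log2 fold change of the 10 genes was 0.77, 0.39, 0.48, 0.57 and 0.55 in these comparisons, and that of all genes tested was 0.16, 0.21, 0.25, 0.25 and 0.21. The comparisons share libraries, so their counts are not independent of each other.

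**Figure D3:**
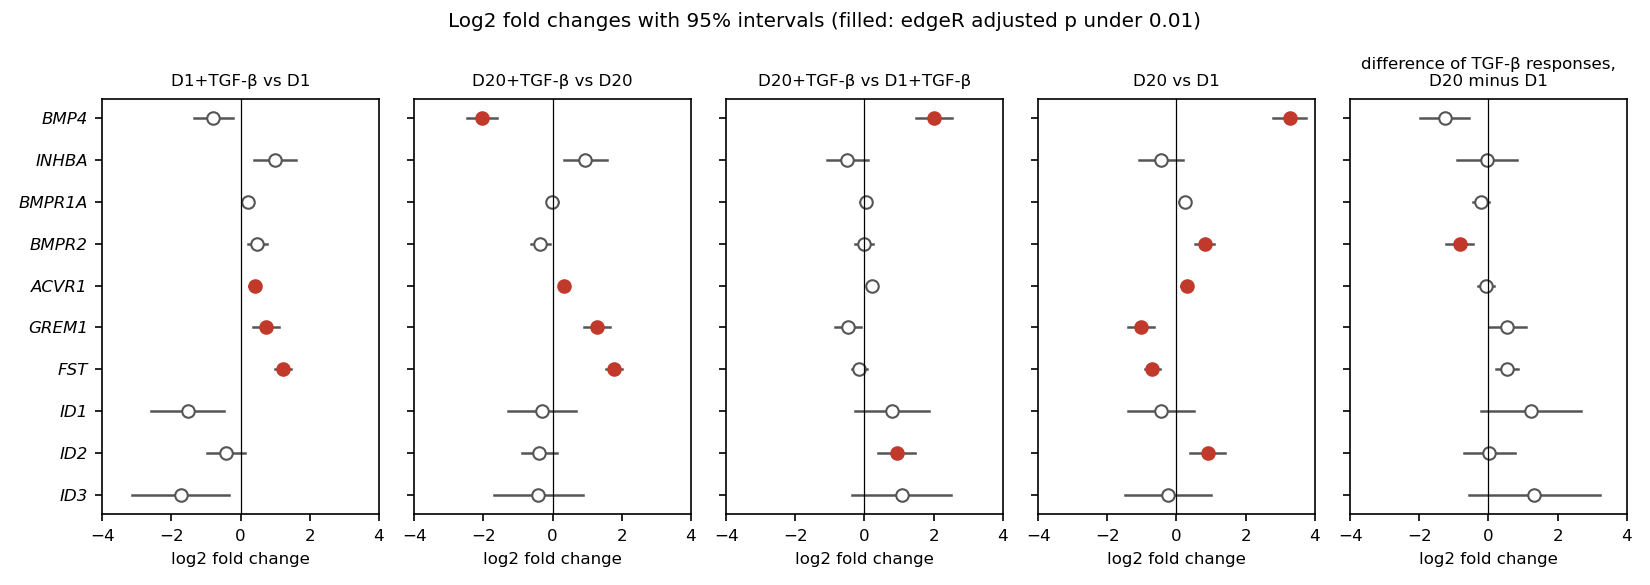
Log2 fold changes of the 10 genes (rows) in the 4 comparisons and in the difference of responses to TGF-β (panels), with 95% intervals as lines; filled points passed an adjusted p under 0.01. The widest intervals are those of ID1 and ID3, such as -3.13 to -0.33 for ID3 in D1+TGF-β vs D1, and the only filled point in the last panel is BMPR2 at -0.84.

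To set the levels of different genes beside each other, mean cpm were divided by the length of the canonical transcript in kilobases. On this scale GREM1 led at D1 and D1+TGF-β (51.7 ± 17.5 and 86.7 ± 1.6 cpm per kb, SD, n = 3), BMP4 led at D20 (63.2 ± 7.15) and FST at D20+TGF-β (65.2 ± 5.42). The lead of FST over GREM1 at D20+TGF-β (62.4 ± 1.77) lay within the spread between flasks. So did the lead of GREM1 at D1, where ID3 was next at 38.6 ± 44.9 cpm per kb and, in flask 2, reached 90.5 against 71.8 for GREM1. BMP4 ranked 9 of 10 at D1 (6.55 ± 0.784) and 10 at D1+TGF-β (3.71 ± 0.46), where INHBA was next to it (9.02 ± 0.429). In the other 3 conditions INHBA was the lowest. Among the receptors, ACVR1 was above BMPR1A in each condition, at 16.6 and 7.89 cpm per kb at D1 and at 25.6 and 9.33 at D20+TGF-β. The transcripts actually present were not measured, and the canonical GREM1 transcript, of 14575 bases, is long, so that its rank depends on this choice.

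Of 63 other genes of the pathway, listed by role, 27 passed the filter. Between 11 and 15 of these were called in each comparison of 2 conditions and 6 for the difference of the responses. With TGF-β at day 1, 6 of the 27 rose and 5 fell, and at day 20, 4 rose and 10 fell. Under TGF-β, from day 1 to day 20, 9 rose and 6 fell, and from D1 to D20 13 rose and 0 fell. The shares called, 40.7%, 51.9%, 55.6% and 48.1%, and 22.2% for the difference, can be read beside those of all genes given above, 13.4%, 27.5%, 34.8%, 36.4% and 10.4%. Without the 2 libraries that stood apart, the count for the difference was 13 rather than 6, and the share of all genes called was 23.9% rather than 10.4%. The list was written with results of these data known, and only its expressed genes could be tested.

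Ligands were the role with fewest expressed genes: 2 of 16 were tested, BMP2 and GDF11, and 7 of the 16 stayed under 1 cpm in every library. BMP2, a ligand close to BMP4, was at 28.0, 81.6 and 25.3 cpm at D1 and 11.7, 13.3 and 10.1 cpm at D1+TGF-β. At D20 it was at 58.1, 63.5 and 57.9 cpm and at D20+TGF-β at 39.8, 37.7 and 17.9 cpm. D1 flask 2 was the highest of the 12, as it was for ID1 and ID3. BMP2 fell with TGF-β at day 1 (log2 fold change -1.93, SE 0.41, 95% interval -2.82 to -1.05, adjusted p = 0.00396), by 1.14 without the libraries that stood apart, and that call was lost when any D1+TGF-β flask was left out or with limma-voom (highest adjusted p 0.0190). Its value at day 20 was -0.90 (SE 0.37, adjusted p = 0.0650), where the flasks did not overlap. It was called there without D1 flask 2 and without both libraries that stood apart (-0.61, adjusted p = 9.95e-06). The difference between its responses did not pass the threshold (1.03, adjusted p = 0.201) but did so without both libraries (0.54, 0.00532).

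Among receptors and co-receptors, 7 of 12 were tested. ACVRL1, a type I receptor also called ALK1 that is best known from endothelium, was at 19.3 to 29.1 cpm in D1, 6.04 to 8.03 cpm in D1+TGF-β, 39.3 to 42.2 cpm in D20 and 19.5 to 31.6 cpm in D20+TGF-β. It fell with TGF-β at day 1 (log2 fold change -1.71, SE 0.20, 95% interval -2.13 to -1.29, adjusted p = 3.86e-05) and rose under TGF-β from day 1 to day 20 (log2 fold change 1.89, SE 0.20, 95% interval 1.47 to 2.32, adjusted p = 8.41e-06). The day 20 response was smaller in size at -0.59 (adjusted p = 0.0108), and the difference of responses was called (1.11, SE 0.26, adjusted p = 0.00786), though 11 of its 20 alternatives did not call it. All 4 endothelial markers were under 2 cpm in every library, CDH5 at 0 throughout and VWF the highest at up to 1.52 cpm. RGMB, a BMP co-receptor, moved the other way, at 212 to 404 cpm in D1, 592 to 689 cpm in D1+TGF-β, 196 to 218 cpm in D20 and 149 to 212 cpm in D20+TGF-β. RGMB rose with TGF-β at day 1 (log2 fold change 0.97, SE 0.19, 95% interval 0.56 to 1.37, adjusted p = 0.00229; 0.75 without the libraries that stood apart, and lost without D1+TGF-β flask 2, adjusted p = 0.0147) and fell under TGF-β from day 1 to day 20 (log2 fold change -1.88, SE 0.19, 95% interval -2.30 to -1.46, adjusted p = 8.43e-06). The difference of its responses was -1.22 (SE 0.27, adjusted p = 0.00593), lost under 8 of 20 alternatives. BAMBI, a decoy receptor without a kinase domain, rose from D1 to D20 (log2 fold change 1.30, SE 0.18, 95% interval 0.91 to 1.68, adjusted p = 4.81e-05) and was lower with TGF-β at day 20 (log2 fold change -1.12, SE 0.18, 95% interval -1.50 to -0.74, adjusted p = 0.000230).

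Of 15 other antagonists 5 were tested, and 4 of these, NBL1, TWSG1, CRIM1 and FSTL1, rose from D1 to D20, the direction opposite to that of GREM1 and FST. The largest of these rises were in NBL1, a relative of gremlin (log2 fold change 1.48, SE 0.15, 95% interval 1.15 to 1.80, adjusted p = 4.01e-06), and in TWSG1, which binds BMPs together with chordin (log2 fold change 1.33, SE 0.15, 95% interval 1.01 to 1.65, adjusted p = 9.51e-06). TWSG1 was at 220.1 to 307 cpm in D1, 202 to 213 cpm in D1+TGF-β, 609.6 to 656 cpm in D20 and 264 to 424 cpm in D20+TGF-β. At day 20, NBL1, TWSG1 and CRIM1 were lower with TGF-β, the call of NBL1 (-0.55, adjusted p = 0.00868) being lost under 11 of 21 alternatives. CRIM1, a membrane protein that binds BMPs, fell by 0.92 on the log2 scale there (SE 0.08, adjusted p = 1.93e-06), whereas at day 1 its value was 0.12 (adjusted p = 0.317), and the difference was called (-1.04, SE 0.12, adjusted p = 6.88e-05). FSTL1, a follistatin-like glycoprotein, rose with TGF-β at day 1 (log2 fold change 0.92, SE 0.10, 95% interval 0.70 to 1.14, adjusted p = 2.55e-05) but had a value of -0.16 at day 20 (interval -0.37 to 0.05), and this difference was called too (-1.08, SE 0.14, adjusted p = 0.000205). FSTL3, an activin-binding relative of FST, was the 1 listed antagonist that, like FST and GREM1, rose with TGF-β at both times. The D1 flasks had 20.6, 28.1 and 19.6 cpm and the D1+TGF-β flasks 54.9, 55.6 and 55.5 cpm. The day 20 flasks had 15.6, 18.1 and 18.4 cpm without TGF-β and 31.3, 26.4 and 27.2 cpm with it. Its log2 values were 1.27 at day 1 (SE 0.12, adjusted p = 8.38e-06) and 0.70 at day 20 (SE 0.13, adjusted p = 0.000624).

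Of the SMADs and the SMURF ubiquitin ligases that act on them, 8 of 10 were tested. SMAD3, a transducer of activin and TGF-β, was at 323, 385 and 263 cpm at D1 and 114, 115 and 133 cpm at D1+TGF-β. At D20 it was at 473, 497 and 496 cpm, and at D20+TGF-β at 158, 155 and 96.5 cpm. SMAD3 was 2.69-fold lower with TGF-β at day 1 (log2 fold change -1.43, SE 0.17, 95% interval -1.79 to -1.07, adjusted p = 4.70e-05) and 3.58-fold lower at day 20 (log2 fold change -1.84, SE 0.17, 95% interval -2.20 to -1.48, adjusted p = 2.22e-06). SMURF2 rose by 0.55 with TGF-β at day 1 (SE 0.10, adjusted p = 0.00185; 0.0127 without D1+TGF-β flask 2) and fell by 1.01 at day 20 (SE 0.10, adjusted p = 6.61e-06). Its difference of responses, -1.56 (SE 0.15, adjusted p = 1.79e-05), was the largest of the 6 called in the list. The other 5 were ACVRL1, higher, and RGMB, CRIM1, FSTL1 and ENG, lower, ENG being named here after its values were seen. SMAD4, the partner of both SMAD branches, passed in none of the 5 comparisons with all libraries, at 62.1 to 86.1 cpm, and was called for D1+TGF-β vs D1 under 2 of 21 alternatives.

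Among the targets and E proteins, MSX2, a homeobox gene known as a BMP target, passed the threshold in all 4 comparisons of conditions. It was at 22.0, 16.5 and 18.8 cpm at D1 and 7.09, 5.02 and 6.29 cpm at D1+TGF-β, and at 38.5, 43.3 and 42.6 cpm and 13.9, 15.6 and 7.70 cpm at D20 and D20+TGF-β. MSX2 fell with TGF-β at day 1 (log2 fold change -1.67, SE 0.22, 95% interval -2.14 to -1.21, adjusted p = 0.000110) and at day 20 (log2 fold change -1.74, SE 0.19, 95% interval -2.14 to -1.33, adjusted p = 9.30e-06). It rose from D1 to D20 (log2 fold change 1.13, SE 0.18, 95% interval 0.74 to 1.51, adjusted p = 0.000166) and under TGF-β from day 1 to day 20 (1.06, SE 0.23, adjusted p = 0.00167, and 0.0167 without D1+TGF-β flask 2). Of the E proteins, which ID proteins bind, TCF4 rose with TGF-β at both times. It was at 30.2 to 46.7 cpm in D1, 89.1 to 94.4 cpm in D1+TGF-β, 46.1 to 47.4 cpm in D20 and 87.3 to 98.7 cpm in D20+TGF-β, with log2 values of 1.29 at day 1 (SE 0.12, adjusted p = 5.39e-06) and 0.99 at day 20 (SE 0.12, adjusted p = 1.76e-05). TCF12 rose with TGF-β at day 20 by 0.37 (SE 0.07, adjusted p = 0.000516) and TCF3 passed in no comparison, its largest log2 value being 0.24 at day 20 (adjusted p = 0.0195; called under 3 of 21 alternatives).

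**Figure D4:**
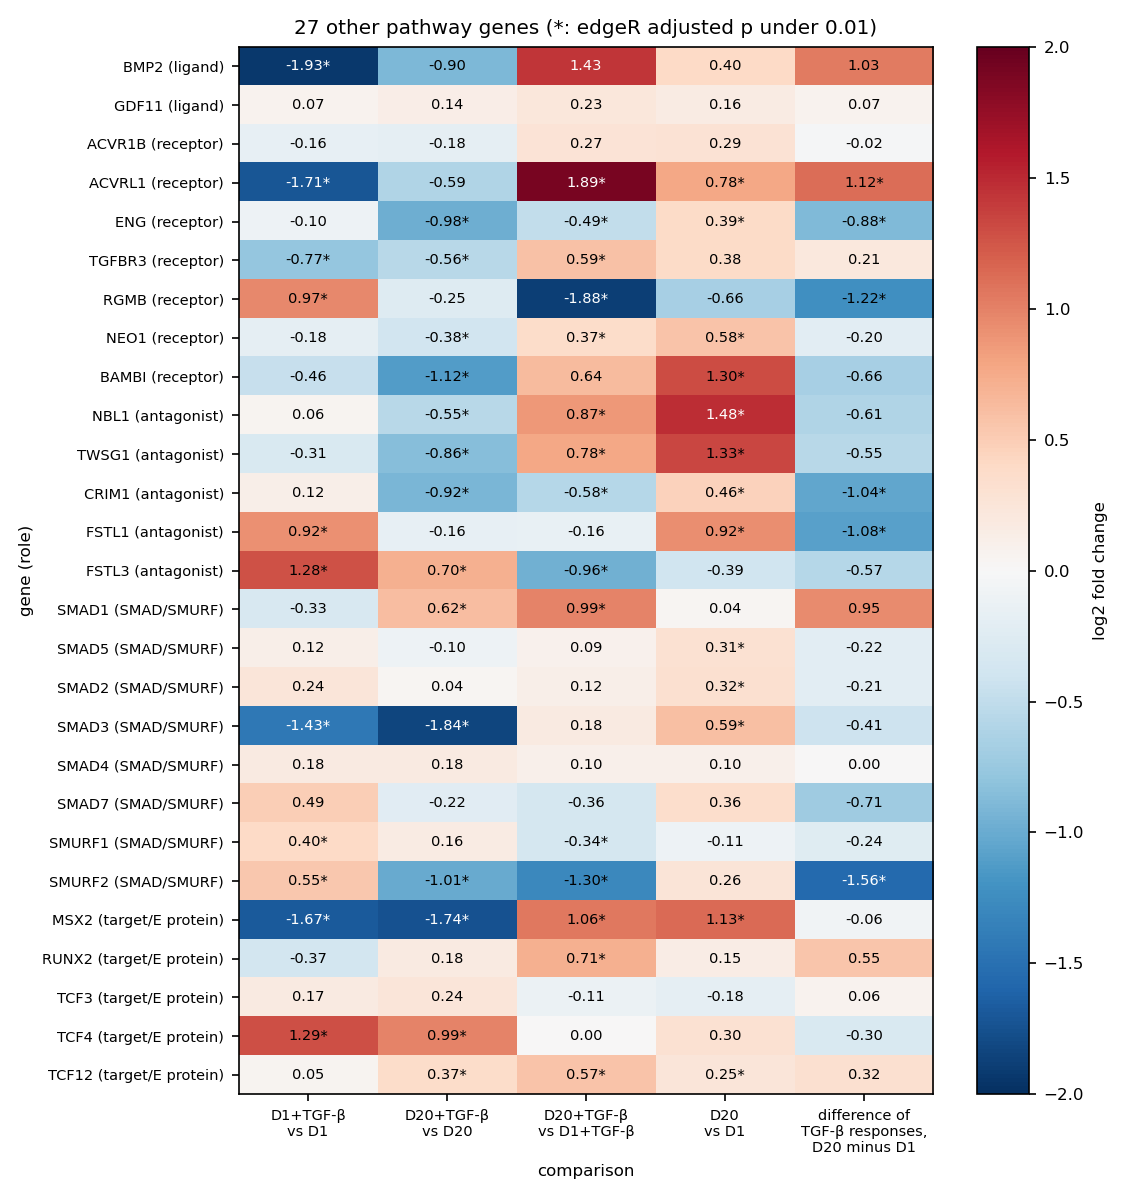
Log2 fold changes of the 27 other pathway genes that were tested (rows, with their role) in the 4 comparisons and the difference of responses to TGF-β (columns), red for higher and blue for lower; asterisks mark an adjusted p under 0.01. The column D20 vs D1 holds 13 asterisks, all on positive values, and the darkest blue cells in the columns D1+TGF-β vs D1 and D20+TGF-β vs D20 are those of BMP2, ACVRL1, SMAD3 and MSX2.

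The genes whose log2 cpm most resembled those of 3 of the members across the 12 libraries were found among all genes tested, as a description. Each value is over 4 conditions of 3 flasks, so that it can largely follow the 4 means. For ID1 it also follows single flasks, since D1 flask 2 and D20+TGF-β flask 3 lay far from the others of their conditions. For BMP4 they were NSG1 (Pearson r = 0.993), NFE2L2 (0.992) and GABARAPL1 (0.990). For INHBA they were CREB3L2 (0.942), TGFB1 (0.941) and CDR2 (0.940). For ID1 they were ID3 (0.955), FAM65B (0.950) and IL4R (0.934). Without the 2 libraries that stood apart, the r of ID1 with ID3 was 0.934 and that of BMP4 with NSG1 was 0.994. ID2 had an r of 0.806 with ID3 and 0.647 with ID1 over all libraries, and of 0.967 and 0.854 over the 10 left.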

How the data were processed

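RNA of 12 flasks of WI-38 cells was sequenced in paired ends, each library on 4 lanes. The authors trimmed reads with Trimmomatic, mapped them to hg19 with Rsubread and deposited raw counts per gene and lane. They also deposited log2 cpm per lane for 9412 genes, as voom writes it, which served as an alternative and gave gene symbols. The program, annotation and strand setting of the counting are not given in the sources used here. Columns were assigned by name, and 0 were left out.

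The 10 genes and all lists were chosen with earlier results of these data known. Lanes were summed, giving 8674488 to 18286197 counts per library, and the SEs between flasks include the counting error at this depth. The filter asked for 10 cpm or more in 6 or more of the 12 libraries and left 9490 of the 20434 genes with a count. The test was edgeR 4.0.16 (R 4.3.3), a quasi-likelihood fit with TMM factors and 1 mean per condition, two-sided, with Benjamini-Hochberg adjustment over all genes tested and a threshold of 0.01. The common biological coefficient of variation was 9.35%. Each SE was computed by dividing the absolute log2 value by the square root of its F. With 3 against 3 flasks an exact permutation test cannot go below p = 0.1 and was not used. Log2 cpm used a prior count of 2. The fit was tested on simulated data.

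The text names all 10 genes, the listed pathway genes called in a comparison with a log2 fold change of at least 1 in size there, the E proteins TCF3, TCF4 and TCF12, and for BMP4, INHBA and ID1 the 3 genes with the highest Pearson r. SMAD1, SMAD4, SMAD5, GDF11 and ENG were named after their values were seen. The alternatives were DESeq2 1.42.0, limma-voom (limma 3.58.1), limma on the deposited log2 values, RLE factors, no composition factor, no filter, only the libraries compared, replicate numbers as a block, leaving out each library, and, chosen after seeing the data, leaving out D1 flask 2 and D20+TGF-β flask 3 together. Gene coordinates were read from GENCODE on GRCh37, and promoter sequences are from RefSeq, where all 10 genes matched.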

Additional observations from a re-analysis of the deposited data

Results flagged for a closer look

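BMPR2 was the 1 of the 10 genes whose response to TGF-β differed between the 2 times in the test of the difference itself. The log2 fold change of the day 20 response minus the day 1 response was -0.8371 (SE 0.18, edgeR adjusted p = 0.00517). The TGF-β flasks were all higher at day 1 (227 to 238 cpm against 140.4 to 209.7 cpm) and all lower at day 20 (206 to 254 cpm against 283 to 309 cpm). The value kept its sign under all 20 alternatives, between -1.04 and -0.73, and did not pass the threshold under 10 of them, with a highest adjusted p of 0.0182. D1 flask 2 and D20+TGF-β flask 2 were each the highest of their 3 flasks, and the difference stayed past the threshold when either was left out.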

How the results depend on the processing

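Of the 50 log2 fold changes (10 genes in 5 comparisons), 16 were called. Of these 10 stayed called under every alternative and 6 were lost under some, none with a change of sign. Of the 34 not called, 13 were called under some alternative. In D1+TGF-β vs D1 the number of the 10 genes called was 3, against 5 with DESeq2, 7 without the filter on low counts, 7 without the pair of libraries that stood apart and 2 to 5 leaving out 1 library. In D20+TGF-β relative to D1+TGF-β it was 2, against 4 with only the libraries compared, 5 without the pair and 1 to 4 leaving out 1. For the difference of responses it was 1, against 3 with DESeq2, without the filter or without the pair, and 0 to 2 leaving out 1. Without the pair the share of all genes called also rose in these comparisons, from 13.4%, 34.8% and 10.4% to 27.8%, 47.3% and 23.9%. For the other alternatives the share of all genes is not given here, so these counts cannot be set beside a background. For the pathway list the count of 11 in D1+TGF-β vs D1 ran from 7 (without D1+TGF-β replicate 2) to 13 leaving out 1 library. Without the filter the list gave 22 rather than 14 calls in D20+TGF-β vs D20, 25 rather than 15 in D20+TGF-β relative to D1+TGF-β and 20 rather than 13 in D20 vs D1, with more genes tested. For the difference it gave 6, against 13 without the pair and 4 to 10 leaving out 1 (10 without D1 replicate 2).

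Signs turned for 12 results, none of them called. INHBA in D20 vs D1 was 0.061 without the pair (-0.66 to 0.076 leaving out 1), and its difference of responses 0.057 without a composition factor (-0.56 to 0.17). BMPR1A in D20+TGF-β vs D20 was 0.0099 with DESeq2, 0.014 with limma on the deposited log2 values, 0.012 with RLE factors, 0.042 without a composition factor, 0.013 without the filter, 0.0059 with only the libraries compared and 0.028 without the pair (-0.074 to 0.070), and in D20+TGF-β relative to D1+TGF-β it was -0.011 without the filter (-0.040 to 0.080). BMPR2 in D20+TGF-β relative to D1+TGF-β was 0.018 (-0.093 to 0.054) and the difference of ACVR1 0.031 without a composition factor. ID1 without the pair was 0.059 in D20+TGF-β vs D20 (-0.65 to 0.033) and 0.52 in D20 vs D1 (-0.75 to 0.54). ID2 in D1+TGF-β vs D1 was 0.089 without the pair (-0.64 to 0.090), and its difference -0.062 with limma-voom, -0.12 with limma on the deposited values and -0.32 without the pair (-0.46 to 0.26). ID3 in D20 vs D1 was 0.35 with limma-voom, 0.44 with limma on the deposited values and 1.38 without the pair (-0.66 to 1.40), and its difference ran from -0.29 to 1.74 leaving out 1. The cause was not tested.

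The same replicate number did not pair flasks: residual correlations of same-numbered libraries ran from -0.22 to 0.32 with a median of -0.055, and those of other pairs from -0.36 to 0.24 with a median of 0.049. With a replicate block, ID3 in D20 vs D1 was 0.058, BMPR2 in D1+TGF-β vs D1 was called (0.50, adjusted p = 0.00925) and ACVR1 in D20 vs D1 was not (0.29, adjusted p = 0.0103), and no other call among the 10 genes changed. Low counts limit BMP4, ID1 and ID3 most at D1+TGF-β.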

Other observations

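Some genes of the pathway list missed the filter on low values. These were chosen after their values were seen and are given as values only. SMAD9, the third BMP SMAD beside SMAD1 and SMAD5, was at 35.9 to 39.4 cpm in D20, 8.20 to 16.5 cpm in D1 (highest in D1 flask 2), 5.59 to 6.52 cpm in D1+TGF-β and 5.64 to 12.6 cpm in D20+TGF-β, so that D20 did not overlap any other condition. SMAD6, an inhibitory SMAD of the BMP branch, was at 9.72 to 11.8 cpm in D20 and at 1.62 to 4.10 cpm in the other 9 libraries. ATOH8, a helix-loop-helix gene, was at 18.8 to 21.9 cpm in D20, 6.19 to 14.7 cpm in D1, 2.09 to 3.14 cpm in D1+TGF-β and 3.76 to 10.9 cpm in D20+TGF-β. BMP5 was at 4.81 to 5.34 cpm in D20 and at 0 to 0.404 cpm elsewhere. The 2 BMP SMADs that passed the filter did not share the SMAD9 pattern. SMAD1 was higher with TGF-β at day 20 (0.62, edgeR adjusted p = 0.00865, lost under 9 of 21 alternatives). Its value for D20 vs D1 was 0.04 (0.878). SMAD5 was at -0.10 with TGF-β at day 20 (0.395) and at 0.31 for D20 vs D1 (0.00960, lost under 15 of 21 alternatives).

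INHBE, which encodes another activin subunit, and HEY1, a transcriptional repressor, lay higher in the flasks with TGF-β. INHBE was at 4.90 to 6.50 cpm in D1+TGF-β and 1.61 to 5.07 cpm in D20+TGF-β, and at 0.0953 to 0.422 cpm in the 6 flasks without TGF-β. HEY1 was at 2.06 to 2.55 cpm in D1+TGF-β, 4.42 to 7.75 cpm in D20+TGF-β and 0.180 to 1.57 cpm without TGF-β.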
